A study of Mus musculus with 9 samples.

Results

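Myotubes (MT) were compared with the myoblasts (MB) they were grown from, and the change was read function by function over 1186 protein-coding genes in 52 lists of 10 functional classes. The comparison used 4 of the 9 RNA-seq libraries of the series, 2 biological replicates of each state. The lists follow textbook function but were chosen with earlier results of these data known, and a gene could stand in more than one list. The other 5 libraries, of lactate-treated MB and of gastrocnemius muscle, were not compared here. All cells were primary myoblasts of C57BL/6 mice, and the labels name no engineered allele in either state. MB were kept in growth medium, DMEM and Ham's F-10 with 10% horse serum, 20% fetal bovine serum and 10 ng/ml basic FGF, and MT were taken after 3 days in differentiation medium with 2% horse serum. Both states were the control arms of the culture, which received the phosphate-buffered saline (PBS) vehicle and 0 mM added lactate. State, serum, FGF and time in culture changed together, so their shares in any difference cannot be told apart. RNA was extracted in bulk and amplified with the Smart-seq2 protocol, which copies polyadenylated RNA without molecular identifiers.

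Myoblasts are the dividing, mononucleate precursors of skeletal muscle. When mitogens are withdrawn they leave the cell cycle, myogenin and MEF2 factors switch on muscle genes, and the cells fuse into multinucleate myotubes that assemble sarcomeres, the repeating contractile units of actin and myosin. A myotube must also build the membrane system that turns an action potential into calcium release, and it lives without further DNA replication.

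The libraries held 10839516 and 7856301 counts for MT and 8974146 and 7770793 for MB. A count of 3 was worth between 0.249 and 0.411 CPM (counts scaled to a common library size) after TMM normalization, a limit that covers counting error only. MT replicate 1 stood apart in that 18545 protein-coding genes had at least 1 count in it, against 12927 to 13804 in the other 3 libraries, and 4077 protein-coding genes were counted in it alone. These genes, 18 of which are in the lists, were not used as results, except that they enter the summed levels of cell type markers below. MB replicate 1 stood apart in that 9.20% of its counts fell on CT010467.1, a gene of ribosomal RNA, against 0.131% to 0.575% in the other 3. Across genes the log2 levels of replicates correlated with r = 0.926 in MT and 0.927 in MB, and those of MT and MB libraries with r between 0.696 and 0.757, given as a description. Genes are not independent replicates.

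The labelled states were checked against their defining markers. The 5 myotube markers Myog, Myh3, Acta1, Ckm and Mymk summed to 10804 and 11731 CPM in MT and to 217 and 89.1 CPM in MB, and all 5 were called higher in MT. The 5 myoblast markers Pax7, Myf5, Myod1, Cdh15 and Des summed to 1805 and 3655 CPM in MT and 2569 and 1149.6 in MB, and Pax7 alone of them was called, lower in MT. Markers of other cells that such a culture could hold were also summed. Adipocyte markers reached at most 4.48 CPM in any library, Schwann cell markers 7.804, endothelial markers 20.6 and leukocyte markers 26.3, each in MT replicate 1. Markers counted in MT replicate 1 alone are included. They were 3 of 5 adipocyte, 1 of 5 Schwann cell, 3 of 6 endothelial and 3 of 8 leukocyte markers. In MT replicate 2 the 4 sums were 0.255, 1.15, 4.20 and 9.93 CPM, and in MB at most 0.120, 2.88, 7.95 and 17.3 CPM. Smooth muscle and pericyte markers summed to 59.1 and 78.7 CPM in MT and to 74.2 and 28.7 in MB. Of these 5 markers Notch3 alone was called, higher in MT. Fibroblast markers differed between the states and are given beside the matrix genes.

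Of 11716 protein-coding genes tested, 1331 (11.4%) were called higher and 824 (7.03%) lower in MT. A gene was called when edgeR's quasi-likelihood test gave an adjusted p under 0.05 (Benjamini-Hochberg, over all 12921 genes tested) and the absolute log2 fold change (log2FC) of MT over MB was over 0.5, and every called gene also had no overlap between its MT and MB libraries. With no threshold on p, 33.4% of the protein-coding genes had both MT libraries above both MB libraries and 29% had both below. Over all genes, 1425 (11%) were called higher and 887 (6.86%) lower. All adjusted p-values below are from this test, and the value after a log2FC is its standard error (SE). The labels call the libraries biological replicates without saying how the cultures were separated, so that the p-values measure only the spread between these samples.

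The rises were larger than the falls. The median log2FC was 3.92 over the protein-coding genes called higher (3.52 with genes that had no MB count set at the smallest fold that 3 counts allow) and -2.10 over those called lower, against 0.07 over all protein-coding genes tested. With genes uncounted in either state set at that limit, 550 rises and 50 falls exceeded 4 on the log2 scale. There were 181 protein-coding genes called higher that had no count in either MB library, and 2 called lower that had none in MT. The smallest log2FC among the called genes were 1.37 upward and -1.36 downward. In counts simulated with the spread of these libraries, 67, 65 and 64 of 12550 genes were changed 2-fold, 4-fold and 16-fold. Of these, 2.99%, 26.2% and 95.3% were called. Many more genes were called in the data, and the adjusted p depends on that number. These shares are thus not rates for the data, and how many smaller shifts went undetected was not determined.

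Of the list members, 265 of the 1110 tested were called higher and 179 lower. Since the libraries of a called gene do not overlap, its direction without 1 library is fixed in advance and is not given as support. Without MT replicate 1, 222 of the 265 and 70 of the 179 were still called. Here and below, a fit that leaves out a library has 1 library in that state, which is assumed to vary like the 2 of the other state, and the spread comes from those 2 only. A call lost in such a fit does not by itself mean a smaller change.

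**Figure D1:**
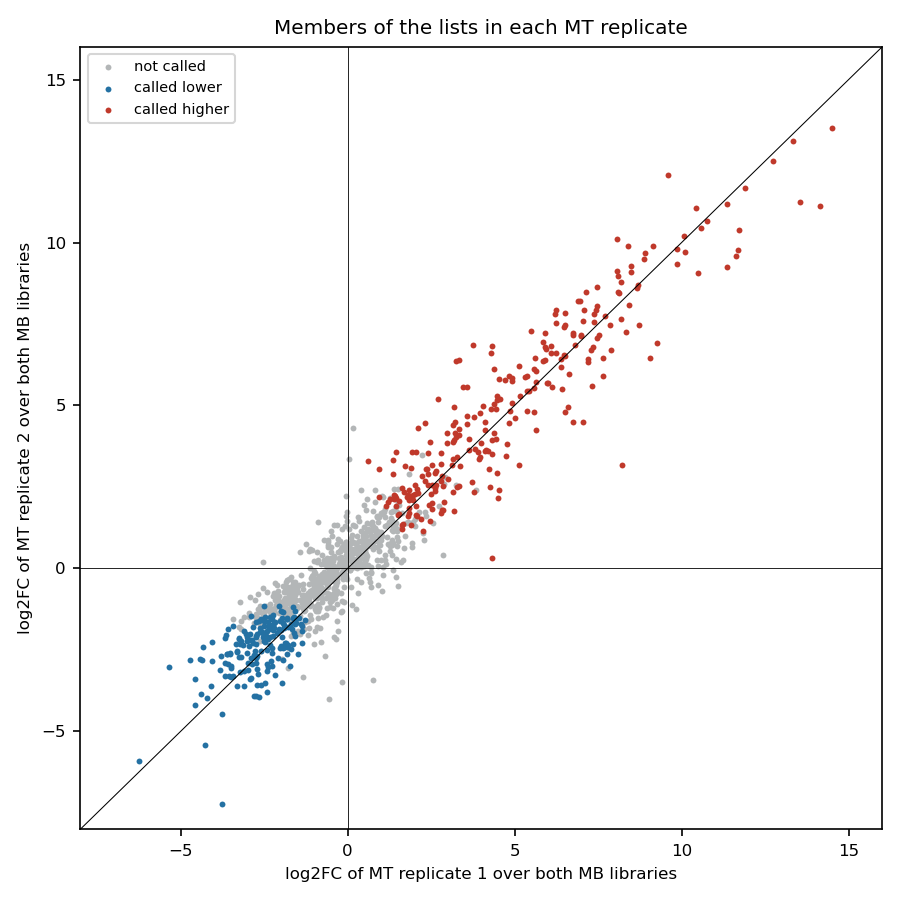
Log2FC of each list member in MT replicate 1 (x axis) and MT replicate 2 (y axis), each taken over both MB libraries, which the axes share. Red points were called higher in MT, blue points lower and grey points were not called, and the lack of overlap between the libraries of called genes places every red point above 0 on both axes and every blue point below.

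**Figure D2:**
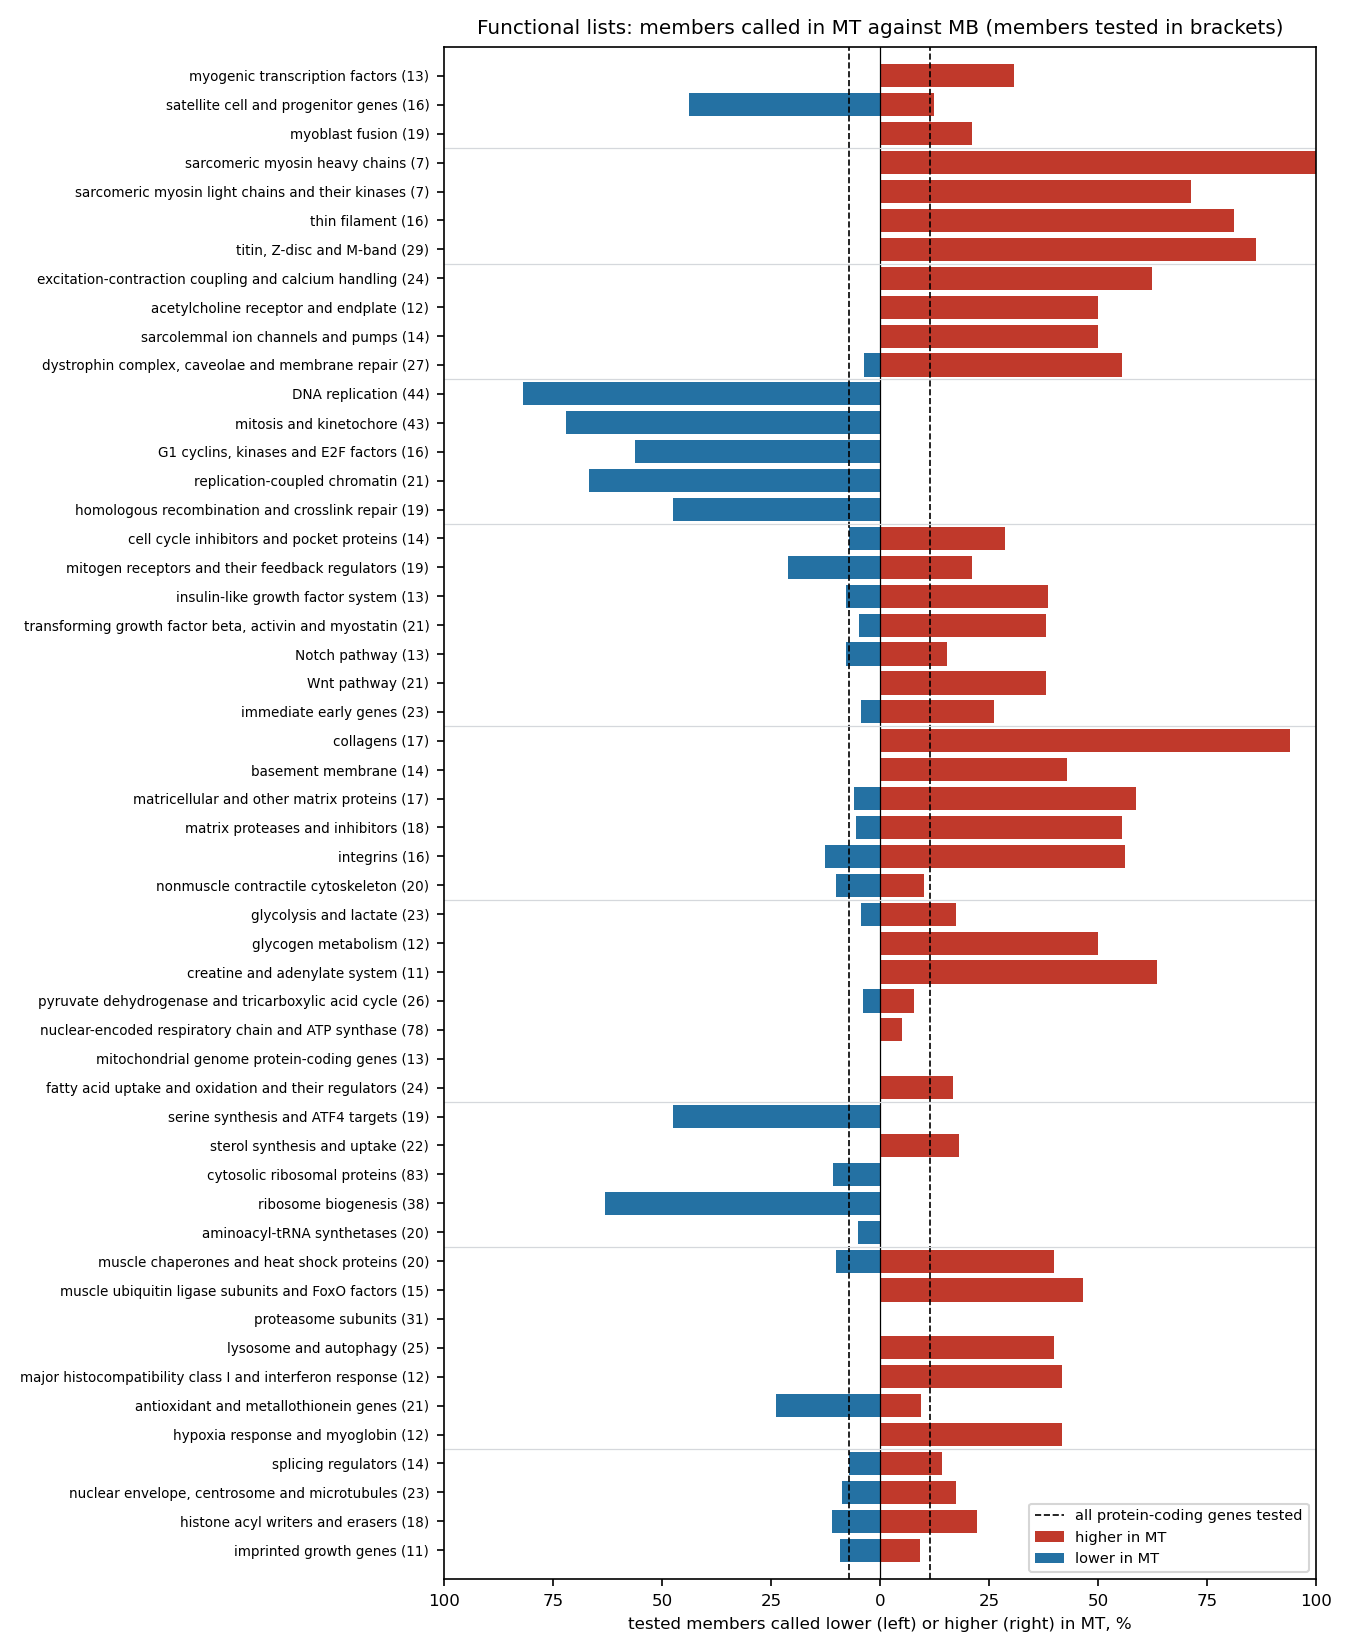
Share of the tested members of each list, in percent, that was called lower (blue, to the left) or higher (red, to the right) in MT, with the number tested in brackets and grey lines between classes. Dashed lines mark the shares over all protein-coding genes tested, 7.03% lower and 11.4% higher.

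Few classes moved as a whole. The contractile apparatus had 50 of 59 tested members higher and 0 lower, cell division had 99 of 143 lower and 0 higher, and biosynthesis had 43 of 182 lower and 4 higher. Membrane and calcium genes (43 of 77 higher) and matrix, adhesion and cytoskeleton genes (50 of 98 higher) also exceeded the background share of 11.4%. The muscle regulators, at 10 higher and 7 lower of 47, were split. Energy metabolism, with 27 of 187 higher and 2 lower, was close to the background upward and under it downward.

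**Figure D3:**
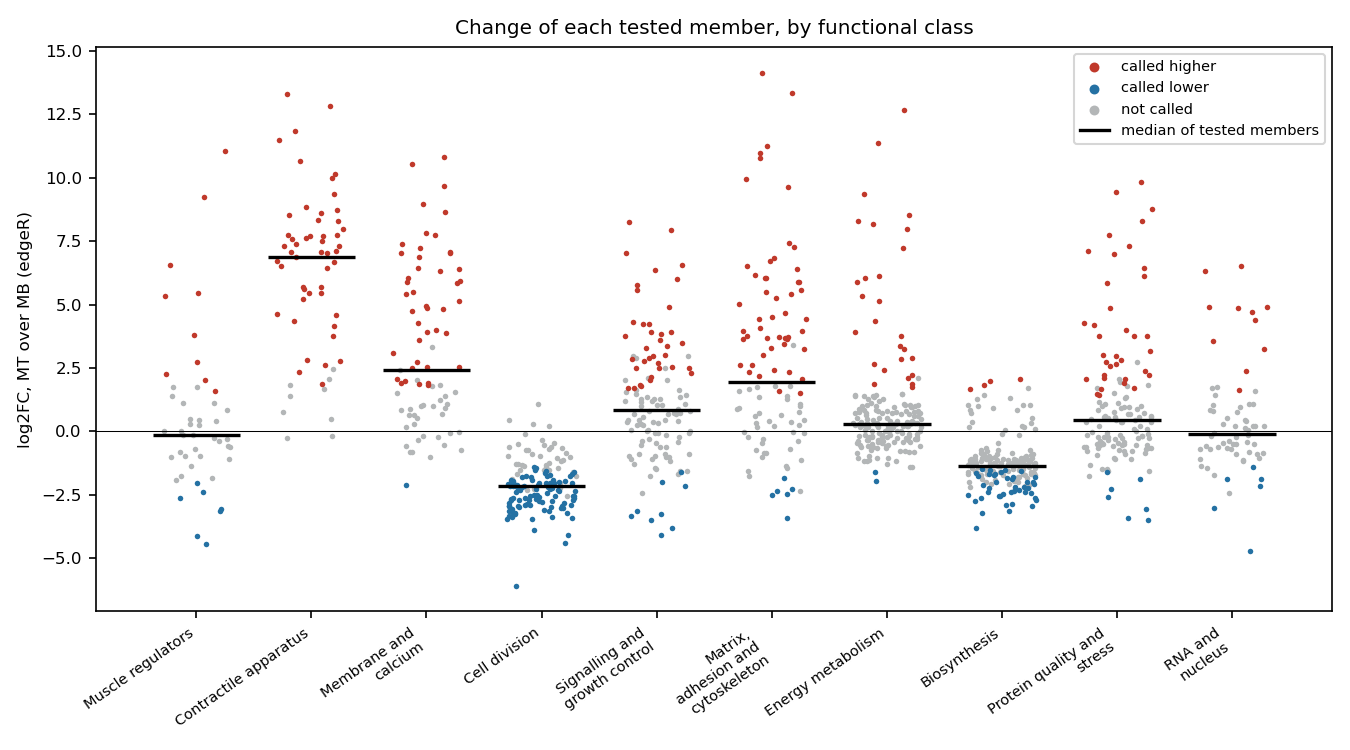
Fitted log2FC of MT over MB (y axis) of every tested member, by functional class (x axis), red where called higher, blue where called lower and grey where not called, with the class median as a black bar. The contractile class lies almost wholly above 0 and the cell division class almost wholly below it; fitted values of genes with no MB count depend on the fit and are not bounds.

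The shift in the makeup of the RNA was read as the share of each library's protein-coding counts. Contractile genes took 4.20% and 5.98% of these counts in MT and 0.571% and 0.442% in MB. Matrix, adhesion and cytoskeleton genes took 9.43% and 8.89% in MT and 5.55% and 4.33% in MB. The matrix class thus took a larger share of the MT counts than the contractile class in both replicates. These counts are not divided by transcript length. The MT minus MB difference was 4.59 percentage points for contractile and 4.22 for matrix genes. With levels divided by exon length (summed RPKM) it was 6.27 and 2.88. Biosynthesis genes took 3.08% and 4.65% in MT and 11.1% and 8.28% in MB, and cell division genes 0.672% and 0.611% in MT and 2.44% and 2.70% in MB. The MT and MB libraries did not overlap in any of these 4 shares. Energy metabolism genes took 6.91% and 7.50% in MT and 6.56% and 6.26% in MB, a mean difference of 0.80 percentage points that was 0.13 without the genes of the mitochondrial genome and 0.504 without MT replicate 2. Protein quality genes took 3.66% and 4.12% in MT and 3.64% and 3.82% in MB, with overlapping libraries. With 2 libraries a group an exact permutation test cannot go below p = 0.33, so these shares are a description, in which fewer cells of a kind and less RNA per cell cannot be told apart.

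**Figure D4:**
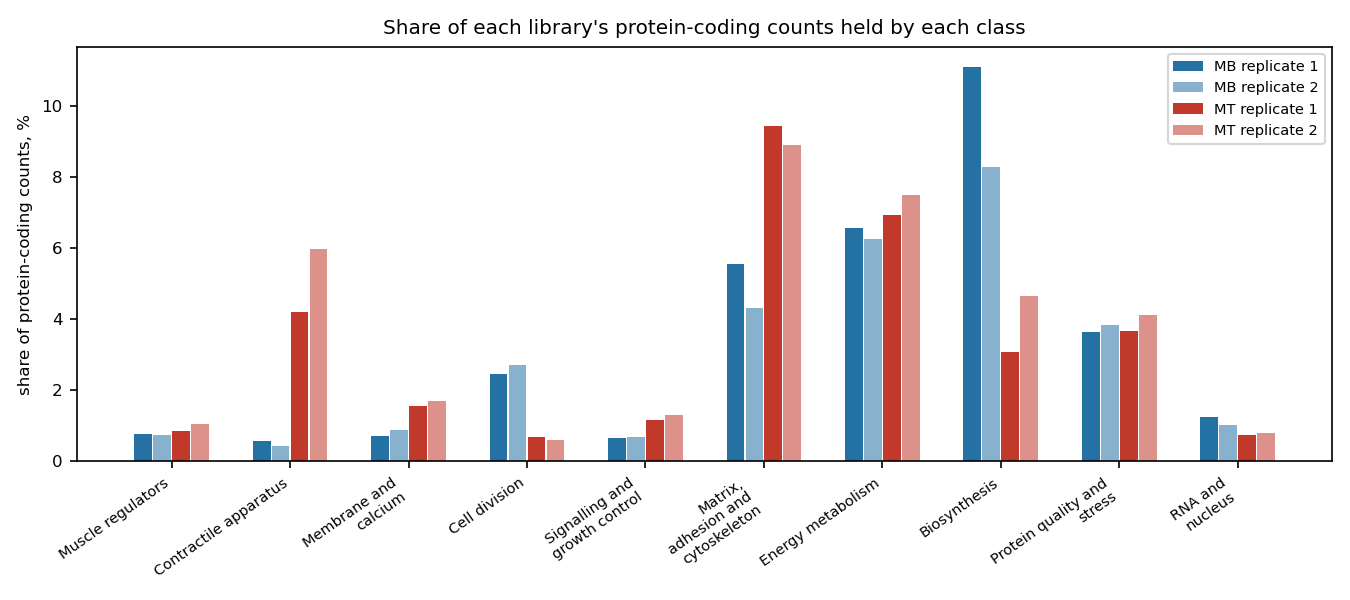
Share of each library's protein-coding counts, in percent (y axis), held by each functional class (x axis), 1 bar per library, MB in blue and MT in red. Contractile and matrix genes hold more of the MT libraries than of the MB libraries, and biosynthesis and cell division genes less.

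Promoter sequence is shown for 3 genes of the contractile class and 3 of the cell division class, the classes with the largest shares of members called higher and lower, as letters that a reader can compare. The sequences are the 250 bases before the gene start in RefSeq (GRCm38.p6), written 5′ to 3′ on the gene's strand. In the contractile genes capitals mark CAGCTG, an E-box of the kind bound by myogenic regulators. They also mark the TATA box letters TATAAA and a MEF2-type pair, CTA and TAG with 4 bases between them. In the cell division genes capitals mark CCAAT, a box bound by NF-Y, and the letters TTTGAA, a core of the cell cycle homology region. Capitals there also mark E2F-type letters, which are TTCCCGC and, as the other form searched, TTGGCGC. All were searched on both strands, and capitals run together where 2 matches overlap.

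Acta1, skeletal actin, chr8:123894776-123895025, minus strand: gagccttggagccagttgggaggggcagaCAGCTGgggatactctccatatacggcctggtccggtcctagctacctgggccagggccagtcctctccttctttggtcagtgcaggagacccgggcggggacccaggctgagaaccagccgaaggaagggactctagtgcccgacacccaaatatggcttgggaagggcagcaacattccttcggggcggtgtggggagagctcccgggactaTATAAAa

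Myl1, a fast myosin light chain, chr1:66945057-66945306, minus strand: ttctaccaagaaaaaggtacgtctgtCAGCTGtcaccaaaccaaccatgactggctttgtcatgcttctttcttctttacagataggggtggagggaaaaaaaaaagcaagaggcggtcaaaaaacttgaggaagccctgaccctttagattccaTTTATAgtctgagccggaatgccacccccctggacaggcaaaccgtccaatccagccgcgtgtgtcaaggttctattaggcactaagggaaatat

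Myoz2, a Z-disc protein, chr3:123034988-123035237, minus strand: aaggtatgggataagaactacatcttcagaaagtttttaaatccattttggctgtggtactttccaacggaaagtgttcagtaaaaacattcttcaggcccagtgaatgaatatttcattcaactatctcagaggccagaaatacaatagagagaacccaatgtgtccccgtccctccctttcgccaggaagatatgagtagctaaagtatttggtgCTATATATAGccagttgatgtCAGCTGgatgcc

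Cdk1, the mitotic kinase, chr10:69352913-69353162, minus strand: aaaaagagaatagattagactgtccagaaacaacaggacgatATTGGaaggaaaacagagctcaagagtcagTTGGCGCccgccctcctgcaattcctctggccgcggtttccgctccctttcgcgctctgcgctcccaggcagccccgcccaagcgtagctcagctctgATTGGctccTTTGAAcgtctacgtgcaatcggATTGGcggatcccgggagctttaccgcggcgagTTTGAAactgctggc

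Mcm5, a subunit of the replicative helicase, chr8:75109259-75109508, plus strand: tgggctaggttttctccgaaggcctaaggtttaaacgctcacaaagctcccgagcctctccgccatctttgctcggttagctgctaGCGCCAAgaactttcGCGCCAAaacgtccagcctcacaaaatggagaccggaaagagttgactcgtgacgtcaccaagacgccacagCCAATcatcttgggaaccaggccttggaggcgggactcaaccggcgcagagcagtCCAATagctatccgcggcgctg

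Ccnb1, cyclin B1, chr13:100786487-100786736, minus strand: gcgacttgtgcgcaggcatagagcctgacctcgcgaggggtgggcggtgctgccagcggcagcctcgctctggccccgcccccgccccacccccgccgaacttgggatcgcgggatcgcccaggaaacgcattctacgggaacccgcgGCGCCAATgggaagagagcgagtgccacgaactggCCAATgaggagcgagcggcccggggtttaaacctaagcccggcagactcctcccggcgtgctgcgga

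Each of the 3 contractile genes holds CAGCTG, and Myoz2 also holds the MEF2-type pair. Cdk1 holds 3 CCAAT boxes, 2 TTTGAA and 1 E2F-type match, Mcm5 holds 2 CCAAT boxes and 2 E2F-type matches, and Ccnb1 holds 2 CCAAT boxes and 1 E2F-type match that overlaps the upstream box. Of the 1186 list members, 914 matched a RefSeq promoter by symbol or synonym. CAGCTG was found in 33.3% of 63 windows of contractile genes, against 12.1% of the 21262 windows of all protein-coding genes, and the MEF2-type pair in 12.7% against 3.06%. CCAAT was found in 62.4% of 133 windows of cell division genes against 35.4% of all, TTTGAA in 21.8% against 14.5%, and the E2F-type letters in 23.3% against 7.20%. The E2F-type letters were also more frequent than in all windows in several other classes. They stood at 14.1% in RNA and nucleus, 13.6% in signalling, 13.3% in energy and 12.6% in biosynthesis genes. They were at 2.99% in membrane and calcium genes and 0% in contractile genes. These are descriptions of letters, and a match is not a bound site.

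Among the muscle regulators, 4 of 13 myogenic transcription factors rose and 0 fell, and 7 of 16 genes of satellite cells (the stem cells of muscle) and progenitors fell and 2 rose. Myog (myogenin, ENSMUSG00000026459, chr1:134289989-134292548, + strand), the factor that starts terminal differentiation, had 824 and 1026 CPM in MT and 95.2 and 36.99 CPM in MB (log2FC 3.81 ± 0.62, adjusted p = 0.00276). Mef2c, a MEF2 factor that works with myogenin, had 587 and 899 CPM in MT and 1.51 and 0.961 CPM in MB (log2FC 9.23 ± 0.71, adjusted p = 8.72e-05). Both genes were higher in each MT library than in either MB library, by 13.999-fold and 602-fold in the mean CPM. Myf6, the factor of late fibres, had 45.2 and 14.005 CPM in MT and no count in MB, which puts it at least 76.7-fold higher (adjusted p = 7.84e-04). Mef2a, chosen here to complete the count of 4 myogenic factors called higher of 13 tested, rose by 1.59 ± 0.46 on the log2 scale (adjusted p = 0.0364). Myod1, the factor that commits cells to the lineage, had 155 and 379 CPM in MT and 1324 and 702 CPM in MB, with no overlap, and missed the threshold (log2FC -1.93 ± 0.61, adjusted p = 0.0528). Myf5, expressed before Myod1 in many progenitors, had 23.8 and 7.26 CPM in MT and 30.9 and 31.6 CPM in MB and was not called either (log2FC -0.999, adjusted p = 0.28).

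Pax7, the transcription factor that marks satellite cells, had 1.16 and 1.66 CPM in MT and 28.1 and 20.5 CPM in MB (log2FC -4.11 ± 0.65, adjusted p = 0.00224). Cxcr4, a chemokine receptor of migrating progenitors, had 2.47 and 2.28 CPM in MB and 2 counts in all in MT, 23.6-fold with a 95% counting interval from 6.08 to 202 higher in MB (adjusted p = 0.0268). Id1, which blocks the E-protein partners of the myogenic factors, had 17.02 and 64.04 CPM in MT and 304 and 374 CPM in MB (log2FC -3.07 ± 0.63, adjusted p = 0.00832). The 7 of 16 satellite cell and progenitor genes called lower share this order of libraries, with every MT value under every MB value. Of these, 2 were still called without MT replicate 1, and without MB replicate 2 the class of muscle regulators had 11 members lower in place of 7. The 2 members that rose were Tcf4, an E protein, with 185 and 233 CPM in MT and 24.5 and 61.98 CPM in MB (log2FC 2.27, adjusted p = 0.0145), and Heyl, a target of Notch signalling, with 37.1 and 38.7 CPM in MT and 0.823 and 0 CPM in MB (log2FC 6.54, adjusted p = 0.0015).

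Of 19 fusion genes tested, 4 rose and 0 fell. Mymk (myomaker), a membrane protein required for fusion, had 803 and 1657 CPM in MT and 46.8 and 13.9 CPM in MB (log2FC 5.34 ± 0.78, adjusted p = 0.00145). Its partner Mymx (myomixer) had 78.1 and 145 CPM in MT and 3.98 and 1.08 CPM in MB (log2FC 5.47 ± 0.71, adjusted p = 7.37e-04). Jam2 and Elmo1, an adhesion molecule and a regulator of Rac, complete the 4 and were added after their values were seen, with log2FC 2.01 and 2.72. The cadherin Cdh15, which is not among the 4, had 97.97 and 363 CPM in MT and 342 and 172 CPM in MB, so its libraries overlapped. Of the 4, 3 were called without MT replicate 1.

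Of 59 contractile genes tested 50 rose and 0 fell, and their median log2FC was 6.87 (6.66 with uncounted genes at their limit). All 7 tested sarcomeric myosin heavy chains were higher in MT, embryonic, neonatal, fast and slow forms together. Myh3, the embryonic form (ENSMUSG00000020908, chr11:67078300-67102291, + strand), had 1612 and 3967 CPM in MT and 13.7 and 8.65 CPM in MB (log2FC 7.96 ± 0.86, adjusted p = 2.55e-04). Myh8, the perinatal form, had 314 and 467 CPM in MT and 1.23 and 0.4804 CPM in MB (log2FC 8.83, adjusted p = 8.72e-05). Myh4, the fast form of type IIb fibres, had 142 and 141 CPM in MT and no count in MB, at least 368-fold higher (adjusted p = 8.72e-05). Myh2, of type IIa fibres, had 14.9 and 13.2 CPM in MT and also no count in MB, at least 36.5-fold higher (adjusted p = 0.00113). Per length of exon, Myh3 stood at 266 and 655 RPKM in MT, Myh8 at 26.7 and 39.6, Myh4 at 23.7 and 23.5 and Myh2 at 2.09 and 1.86, an order that held in both replicates. The other 3 heavy chains of the list, Myh6, Myh13 and Myh15, were too low to test.

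Of the light chains and their kinases, 5 of 7 rose. Myl1, the fast essential light chain, had 2796 and 3554 CPM in MT and 10.3 and 9.73 CPM in MB (log2FC 8.31 ± 0.79, adjusted p = 1.42e-04). Mylpf, the fast regulatory light chain, had 1271 and 4307 CPM in MT and 40.5 and 14.9 CPM in MB (log2FC 6.66 ± 0.94, adjusted p = 0.0012), and its MT replicate 2 was far above replicate 1. Myl2, the slow and cardiac regulatory light chain, had 10.5 and 69.4 CPM in MT and no count in MB, at least 104-fold higher (adjusted p = 0.00166).

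Of 16 thin filament genes tested, 13 rose. Acta1, skeletal actin (ENSMUSG00000031972, chr8:123891769-123894751, - strand), had 7529 and 4976 CPM in MT and 61.3 and 29.2 CPM in MB (log2FC 7.11 ± 0.90, adjusted p = 6.59e-04). Tnnt3 and Tnni1, a fast troponin T and the slow troponin I, had 1170.4 and 2179 and 2029 and 2704 CPM in MT and 17.6 and 8.17 and 16.9 and 7.09 CPM in MB (log2FC 7.03 and 7.63). Tnnc2, fast troponin C, had 51.7 and 51.9 CPM in MT and none in MB, at least 134-fold higher (adjusted p = 1.42e-04). The 3 tropomyosins Tpm1, Tpm2 and Tpm3 were the members tested that were not called, and they were already high in MB, with Tpm1 at 1237 and 2737 CPM in MT and 2463 and 2083 CPM in MB. Of the 16 tested, 15 lay above without overlap, where 33.4% of all protein-coding genes did. Tpm1 was the 1 that overlapped, so Tpm2 and Tpm3 lay higher in both MT libraries without a call. The 3 tropomyosins are named because they complete the count.

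The proteins that anchor and align the filaments rose in 25 of 29. Ttn (titin), the molecular spring of the sarcomere, had 848 and 1204 CPM in MT and 16.9 and 23.2 CPM in MB (log2FC 5.68 ± 0.61, adjusted p = 2.35e-04). Actn2, the alpha-actinin of the Z-disc, had 461 and 953 CPM in MT and 1.92 and 1.44 CPM in MB (log2FC 8.71 ± 0.73, adjusted p = 9.50e-05). Myot (myotilin) and Xirp2, both of the Z-disc, had no count in MB and were at least 261-fold and 58.9-fold higher in MT, with 163 and 38.8 and 35.8 and 9.68 CPM. Des (desmin), the muscle intermediate filament, was present in both states at 1528 and 2904 CPM in MT and 844 and 223 CPM in MB, and its rise missed the threshold (log2FC 2.05 ± 0.74, adjusted p = 0.0794). Leaving out each library in turn left between 48 and 52 members of the class called higher.

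Membrane systems rose in part. For excitation-contraction coupling, the chain from the voltage sensor to calcium release and reuptake, 15 of 24 members rose and 0 fell. Ryr1, the calcium release channel (ENSMUSG00000030592, chr7:29003344-29125179, - strand), had 40.6 and 70.9 CPM in MT and 1.92 and 0.721 CPM in MB (log2FC 5.40 ± 0.69, adjusted p = 6.73e-04). Atp2a1, the fast calcium pump that refills the store, had 669 and 956 CPM in MT and 23.04 and 4.68 CPM in MB (log2FC 5.88 ± 0.81, adjusted p = 0.00109). Casq1 and Trdn, which buffer calcium in the store and tie it to the release channel, had 314 and 287 and 107 and 170.0 CPM in MT and 3 and 1 counts in all in MB, 1578-fold with a 95% counting interval from 539.8 to 7656 and 2060.3-fold with a 95% counting interval from 369 to 81408 higher.

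At the endplate, where nerve meets muscle, the subunits of the acetylcholine receptor did not move alike. Chrna1, the alpha subunit, was high in MB as well, at 1624 and 2096 CPM in MT and 917 and 947 CPM in MB, and was not called (log2FC 1.00 ± 0.56, adjusted p = 0.247). Chrng, the subunit of the fetal receptor, had 616 and 674 CPM in MT and 142 and 84.9 CPM in MB (log2FC 2.50, adjusted p = 0.00785), and Chrne, of the adult receptor, had 2.74 and 1.4005 CPM in MT and no count in MB, at least 5.37-fold higher (adjusted p = 0.0164). Musk, the kinase that clusters the receptors, had 257 and 191 CPM in MT and 34.3 and 88.2 CPM in MB (log2FC 1.87, adjusted p = 0.0335). Colq, the anchor of acetylcholinesterase, had 18.6 and 20.5 CPM in MT and 0.274 and 0 CPM in MB, 151-fold with a 95% counting interval from 41.5 to 1252 higher. Of 12 endplate genes tested 6 rose, and without MT replicate 1 the number was 3.

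Of 14 sarcolemmal channels and pumps 7 rose. Scn4a, the muscle sodium channel, had 7.72 and 15.2 CPM in MT and no count in MB, at least 29.6-fold higher (adjusted p = 0.0022), and Kcnj2, an inward rectifier, had 3.15 and 2.801 CPM in MT and none in MB, at least 7.72-fold higher. The list's median log2FC was 4.23, and 2.68 with uncounted genes at their limit, because 3 of the 7 had no count in MB.

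In the dystrophin complex, caveolae and membrane repair genes, 15 of 27 rose and 1 fell. Dmd (dystrophin), which links actin to the matrix, had 44.7 and 33.99 CPM in MT and 0.274 and 2.402 CPM in MB (log2FC 4.84 ± 0.82, adjusted p = 0.00344). Cav3, the muscle caveolin, had 152 and 218 CPM in MT and 1.65 and 0.601 CPM in MB (log2FC 7.36 ± 0.66, adjusted p = 1.17e-04), and Trim72, a membrane repair protein, had 73.97 and 129 CPM in MT and 0.137 and 0.2402 in MB, 499-fold with a 95% counting interval from 170.4 to 2420.2 higher. Dtnb, a dystrobrevin found outside muscle too, was the member called lower (4.73 and 3.18 CPM in MT and 22.9 and 11.3 CPM in MB; log2FC -2.10, adjusted p = 0.0473), a call that was lost without either MT library or MB replicate 1.

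Of 143 tested members of the cell division class 99 were called lower and 0 higher, 120 had both MT libraries under both MB libraries, and the median log2FC was -2.14. The fitted log2FC of its members ran from -6.07 to 1.08. Among all protein-coding genes tested 7.03% were called lower and 29% had both MT libraries under both MB libraries. For DNA replication 36 of 44 genes fell. Mcm5, of the replicative helicase (ENSMUSG00000005410, chr8:75109569-75128439, + strand), had 18.8 and 43.03 CPM in MT and 396 and 227 CPM in MB (log2FC -3.33 ± 0.57, adjusted p = 0.00339). Orc1 and Cdt1, which load that helicase onto origins, had 0.8302 and 2.55 and 6.72 and 19.5 CPM in MT and 13.2 and 22.1 and 163 and 109 CPM in MB (log2FC -3.41 and -3.38). Pcna, the sliding clamp of the polymerases, had 58.2 and 87.8 CPM in MT and 294 and 286 CPM in MB (log2FC -1.99 ± 0.45, adjusted p = 0.0134).

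Of 43 mitosis and kinetochore genes 31 fell. Cdk1, the kinase that drives entry into mitosis (ENSMUSG00000019942, chr10:69335146-69352938, - strand), had 68.2 and 52.7 CPM in MT and 452 and 435 CPM in MB (log2FC -2.87 ± 0.47, adjusted p = 0.00282). Espl1 (separase), which cuts sister chromatids apart, had 4.898 and 5.73 CPM in MT and 114 and 66.7 CPM in MB (log2FC -4.09 ± 0.53, adjusted p = 7.70e-04), and Ube2c, which marks mitotic cyclins for destruction, had 52.6 and 42.8 CPM in MT and 586 and 448 CPM in MB (log2FC -3.44, adjusted p = 0.00136). Mki67, the usual marker of cycling cells, had 35.2 and 25.8 CPM in MT and 33.6 and 124 CPM in MB, so that its libraries overlapped, and was not called (log2FC -1.36 ± 0.60, adjusted p = 0.143). Cenpf and Knl1, named after their values were seen, likewise had far fewer counts in MB replicate 1 (11.9 and 81.4 and 4.11 and 58.7 CPM in MB).

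Upstream of these, Ccnd1, the cyclin D that mitogens induce, fell from 1255 and 648 CPM in MB to 40.3 and 51.6 in MT (log2FC -4.37 ± 0.59, adjusted p = 9.90e-04), and Myc from 274 and 189 to 36.9 and 24.3 CPM (log2FC -2.92 ± 0.48, adjusted p = 0.00282). Ccnd3, the cyclin D that is kept in differentiating muscle, had 677 and 887 CPM in MT and 916 and 429 CPM in MB and was not called (log2FC 0.22, adjusted p = 0.823). Its sign turned without MT replicate 2 or MB replicate 2. Cyclins, kinases and E2F factors of G1 fell in 9 of 16 tested, and in 3 without either MT library.

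Chromatin proteins made for replication fell in 14 of 21. Hmga1, a DNA-bending protein of proliferating cells, had 12.6 and 15.7 CPM in MT and 1394 and 505 CPM in MB (log2FC -6.07 ± 0.71, adjusted p = 3.71e-04), and its reads cannot be kept apart from those of near-identical copies such as Hmga1b. Hmga2 had 4.73 and 10.6 CPM in MT and 88.3 and 132 CPM in MB (log2FC -3.86, adjusted p = 0.00149), and Uhrf1, which guides maintenance methylation, had 25.3 and 40.6 CPM in MT and 435 and 274 CPM in MB (log2FC -3.43, adjusted p = 0.00173). Homologous recombination and crosslink repair genes fell in 9 of 19, and in 3 without either MT library. Brca1, of homologous recombination, had 5.56 and 11.8 CPM in MT and 23.6 and 50.4 CPM in MB (log2FC -2.10, adjusted p = 0.0382), and Fanca and Exo1 had log2FC -2.93 and -2.71.

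The number of cell division genes called varied with the library left out. Without MT replicate 1 the class had 54 lower and without MT replicate 2 it had 59, against 114 and 95 without the MB libraries. The DNA replication list had 10 lower without MT replicate 1 and 19 without MT replicate 2, and the mitosis list 28 and 21. The median log2FC of the class without MT replicate 1 was -2.25, against -2.14 with all libraries.

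**Figure D5:**
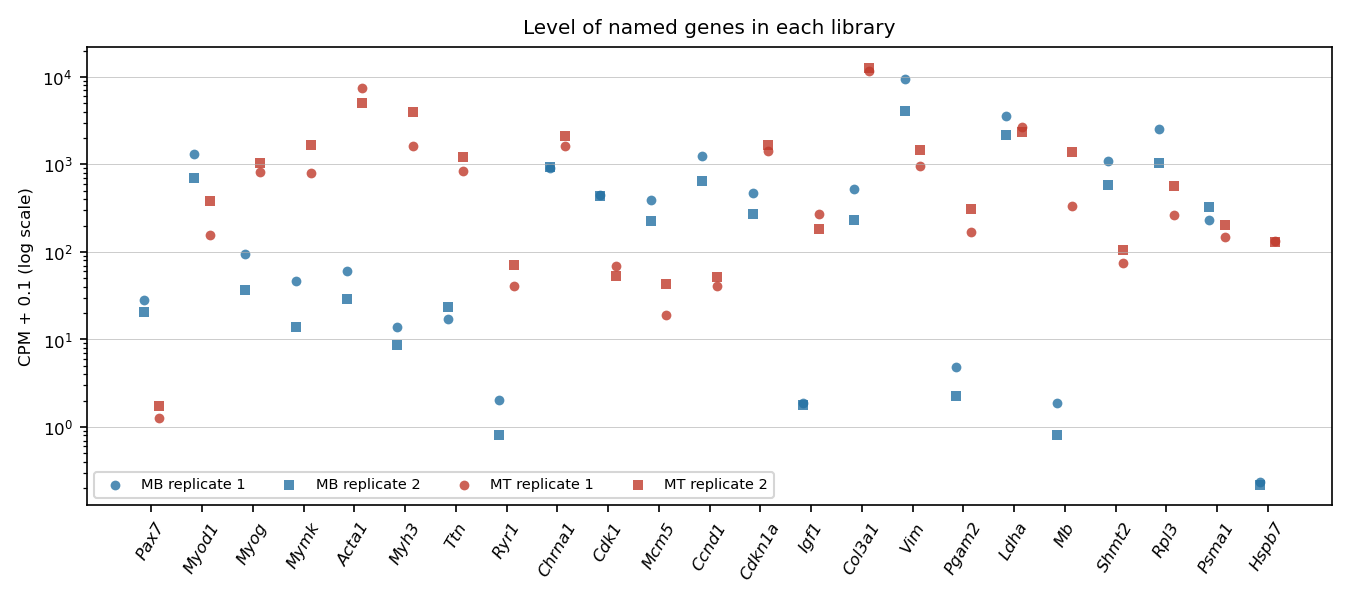
CPM plus 0.1 of named genes (x axis) on a log scale (y axis), 1 point per library, MB in blue and MT in red, circles for replicate 1 and squares for replicate 2. Pax7, Cdk1, Mcm5, Ccnd1, Vim and Shmt2 lie lower in both MT libraries than in either MB library, Ldha overlaps, and Myog, Acta1, Col3a1, Mb and Hspb7 lie higher.

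Signals that hold or release division changed gene by gene. Of 14 cell cycle inhibitors and pocket proteins 4 rose (28.6%) and 1 fell (7.14%), against 11.4% and 7.03% over all protein-coding genes. Cdkn1a (p21), the inhibitor that is induced on cell cycle exit, had 1430.0 and 1648 CPM in MT and 478 and 271 CPM in MB (log2FC 2.04 ± 0.57, adjusted p = 0.032). Btg2 and Gadd45a, antiproliferative genes, rose by 2.79 and 2.54 on the log2 scale (adjusted p = 0.00476 and 0.0228), and Rb1, the retinoblastoma gene, completes the 4 at 1.79. Cdkn2b (p15) went the other way, with 5.89 and 7.89 CPM in MT and 72.3 and 60.1 CPM in MB (log2FC -3.26 ± 0.51, adjusted p = 0.00206), and Cdkn1c (p57) was too low to test, at 1.08 and 0.891 CPM in MT and 0.411 and 0.1201 CPM in MB. The calls upward numbered 1 without MT replicate 1 and 2 without MT replicate 2.

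Of the mitogen receptors and their feedback regulators 4 rose and 4 fell of 19, with 2 higher without MT replicate 2 and 7 lower without MB replicate 2. Etv4 and Dusp5, which are induced by the ERK pathway, had 2.08 and 10.2 and 3.15 and 2.16 CPM in MT and 95.98 and 70.98 and 37.02 and 16.6 CPM in MB (log2FC -3.79 and -3.32). Pdgfrb, a PDGF receptor, had 117 and 210.1 CPM in MT and 12.1 and 4.56 CPM in MB (log2FC 4.30 ± 0.61, adjusted p = 0.00126), and Spry1, a feedback inhibitor, had 9.71 and 25.3 CPM in MT and 2.47 and 0.961 CPM in MB (log2FC 3.35, adjusted p = 0.0154). Dusp6 and Spry4, feedback genes of the same pathway, had lower values in both MT libraries and were not called (log2FC -1.26 and -1.65, adjusted p = 0.191 and 0.0827).

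Several secreted growth factors rose. In the insulin-like growth factor system 5 of 13 rose and 1 fell, with 3 higher without MT replicate 2. Igf1 had 275 and 182 CPM in MT and 1.78 and 1.68 CPM in MB (log2FC 7.03 ± 0.57, adjusted p = 9.06e-05) and Igf2 39.9 and 156 CPM in MT and 5.76 and 0.841 CPM in MB (log2FC 4.90 ± 0.92, adjusted p = 0.00561), both growth factors that drive differentiation and fibre growth. Igfbp5, a binding protein of differentiating muscle, had 198 and 288 CPM in MT and 66.9 and 42.04 CPM in MB (log2FC 2.16, adjusted p = 0.011), while Igfbp2 fell, with 1.91 and 7.002 CPM in MT and 47.2 and 52.1 CPM in MB (log2FC -3.50, adjusted p = 0.00597). In the TGF-beta, activin and myostatin list 8 of 21 rose and 1 fell. Inhba, an activin subunit, had 144 and 103 CPM in MT and 1.37 and 11.7 CPM in MB (log2FC 4.23, adjusted p = 0.00605), its antagonist Fst (follistatin) had 17.6 and 145 CPM in MT and 1.23 and 2.16 CPM in MB (log2FC 5.56, adjusted p = 0.00375), and Bmp4 had 23.2 and 48.8 CPM in MT and 0.686 and 0.601 CPM in MB (log2FC 5.78, adjusted p = 5.76e-04). The ligand and its antagonist thus rose together, and Fst was far higher in MT replicate 2 than in replicate 1. Mstn (myostatin) was too low to test, at 2.41 and 0.255 CPM in MT and 1.23 and 0.2402 CPM in MB. Ltbp1, which stores TGF-beta in the matrix, was the gene that fell (259 and 174 CPM in MT and 569 and 756 CPM in MB; log2FC -1.61, adjusted p = 0.0473), a call that was lost without either MT library or MB replicate 2.

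In the Notch list Notch3 rose (23.2 and 48.4 CPM in MT and 3.702 and 0.1201 CPM in MB; log2FC 4.24, adjusted p = 0.0166) with Heyl, and Jag2, a ligand, fell (12.3 and 6.88 CPM in MT and 53.8 and 30.99 CPM in MB; log2FC -2.14, adjusted p = 0.0239). These were 15.4% and 7.69% of the 13 tested, near the 11.4% higher and 7.03% lower over all protein-coding genes. Notch1 had 29.7 and 36.2 CPM in MT and 155 and 40.5 CPM in MB and was not called (log2FC -1.57, adjusted p = 0.0962). Of 21 Wnt genes 8 rose and 0 fell. Axin2 and Wif1, a target and a secreted inhibitor of the pathway, had 4.4002 and 2.42 and 5.73 and 2.801 CPM in MT and no count in MB, at least 8.84-fold and 11.1-fold higher, and Fzd7 had 16.4 and 17.6 CPM in MT and 15.4 and 7.33 CPM in MB and was not called. Immediate early genes had 6 of 23 higher and 1 lower, but 1 higher without MT replicate 2. Fos had 13.8 and 59.97 CPM in MT and 2.88 and 2.52 CPM in MB (log2FC 3.76, adjusted p = 0.00774), Egr1 219 and 513 CPM in MT and 132 and 91.2 CPM in MB (log2FC 1.71, adjusted p = 0.0482) and Ccn2, a matrix signal downstream of YAP, 71.2 and 319 CPM in MT and 11.2 and 21.02 CPM in MB (log2FC 3.59, adjusted p = 0.00691), each higher in MT replicate 2 than in replicate 1. Fosl1 (Fra-1) fell, with 26.4 and 15.9 CPM in MT and 348 and 362 CPM in MB (log2FC -4.06 ± 0.51, adjusted p = 5.76e-04). Over the class of signalling genes 24 of 124 were higher without MT replicate 2 in place of 37, and 16 were lower without MB replicate 2 in place of 9.

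Of 98 genes of matrix, adhesion and cytoskeleton tested 50 rose and 6 fell. Collagens rose in 16 of 17 tested. Col3a1, a fibrillar collagen (ENSMUSG00000026043, chr1:45311538-45349706, + strand), had 11704 and 12702 CPM in MT and 526 and 231 CPM in MB (log2FC 5.01 ± 0.92, adjusted p = 0.00509). Col1a1 had 14625 and 1764 CPM in MT and 1.097 and 0.4804 CPM in MB (log2FC 13.34 ± 1.57, adjusted p = 3.95e-04), and MT replicate 1 was far above replicate 2. Col6a2, of the microfibrils around fibres, had 317 and 187 CPM in MT and no count in MB, at least 654-fold higher (adjusted p = 8.72e-05). The call of Col1a2 rested on MT replicate 1, since it had 35.5 and 2.16 CPM in MT and 1.78 and 1.68 CPM in MB and a log2FC of 0.32 without that library, and it is named for that reason after its values were seen.

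Basement membrane genes rose in 6 of 14, and in 3 without MT replicate 2. Nid2 (nidogen) had 319.6 and 554 CPM in MT and 45.1 and 21.98 CPM in MB (log2FC 3.70, adjusted p = 0.00201), and Lama4 46.2 and 21.5 CPM in MT and no count in MB, at least 87.7-fold higher. Lama2, the laminin chain of mature muscle, had 41.8 and 35.6 CPM in MT and 17.3 and 14.9 CPM in MB and was not called (log2FC 1.27, adjusted p = 0.0947). Of 17 other matrix proteins 10 rose and 1 fell. Prelp, a small proteoglycan, had 23.9 and 25.6 CPM in MT and no count in MB, at least 64.1-fold higher, and Fbln1 fell, with 16.9 and 15.5 CPM in MT and 124 and 52.97 CPM in MB (log2FC -2.44, adjusted p = 0.0108). Fn1 (fibronectin) and Sparc, both abundant, had 2073 and 4519 CPM in MT and 1069.8 and 903 CPM in MB and 4971 and 6414 CPM in MT and 2211 and 1595 CPM in MB, without overlap and without a call (log2FC 1.74, adjusted p = 0.0956 and log2FC 1.58, adjusted p = 0.142).

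Markers of fibroblasts moved with these genes. The 8 markers summed to 562 and 162 CPM in MT and 56.6 and 30.99 CPM in MB, and 2 of the 8 were called higher, the matrix genes Dcn and Col15a1. Dcn (decorin) had 455 and 110.4 CPM in MT and 0 and 0.2402 CPM in MB, 2492-fold with a 95% counting interval from 689.7 to 20585 higher in MT, and Col15a1 13.4 and 13.2 and 0.274 and 0 CPM, 104-fold with a 95% counting interval from 28.5 to 863 higher. Pdgfra, a receptor that defines fibro-adipogenic cells, had 6.31 and 2.55 CPM in MT and 1.78 and 1.44 CPM in MB and was not called, and Cd34 had 35.5 and 12.5 CPM in MT and 36.9 and 21.98 CPM in MB with overlapping libraries. Dpt and Lum had no count in MB and were too low to test. The part of such cells in the rise of matrix genes was not tested. Thbs2, among the matrix genes, had 2746 and 83.1 CPM in MT and 13.2 and 5.16 CPM in MB, which is another value carried by MT replicate 1.

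Matrix proteases and their inhibitors had 10 of 18 higher and 1 lower. Adamts5, which cleaves proteoglycans, had 224 and 236 CPM in MT and 5.21 and 5.53 CPM in MB (log2FC 5.42 ± 0.50, adjusted p = 1.37e-04), Timp3, an inhibitor, 560.2 and 359.7 CPM in MT and 24.7 and 34.8 CPM in MB (log2FC 3.95, adjusted p = 8.26e-04), and Mmp13, a collagenase, 8.14 and 69.3 CPM in MT and 0.823 and 0.841 CPM in MB (log2FC 5.51, adjusted p = 0.00514). Mmp2 had 38.4 and 16.9 CPM in MT and 20.7 and 7.21 CPM in MB and was not called. Plaur, the urokinase receptor, fell, with 25.2 and 22.2 CPM in MT and 117 and 122 CPM in MB (log2FC -2.33, adjusted p = 0.00541).

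Integrins, the receptors for the matrix, moved both ways. Of 16 tested 9 rose and 2 fell. Itga6 and Itga3, laminin-binding subunits, fell, with 18.5 and 20.2 CPM in MT and 211 and 199.9 CPM in MB for Itga6 (log2FC -3.41 ± 0.45, adjusted p = 7.99e-04) and 34.3 and 60.9 CPM in MT and 232 and 107 CPM in MB for Itga3 (log2FC -1.83, adjusted p = 0.0346). The call of Itga3 was lost without MT replicate 1 and without MB replicate 1. Itga11, a collagen-binding subunit, had 71.98 and 52.1 CPM in MT and 0 and 0.1201 in MB, 1002-fold with a 95% counting interval from 179 to 39588 higher, and Itga9 had 12.5 and 3.82 CPM in MT and 0 and 0.1201 in MB, 141-fold with a 95% counting interval from 25.04 to 5611 higher. Itga7, the laminin receptor of muscle fibres, had 901 and 984 CPM in MT and 419.6 and 293 CPM in MB (log2FC 1.40, adjusted p = 0.0818), and Itga5, the fibronectin receptor, 323 and 204 CPM in MT and 209.7 and 135 CPM in MB (log2FC 0.61, adjusted p = 0.398), neither called. In the nonmuscle cytoskeleton 2 of 20 rose and 2 fell, near the background shares of 11.4% and 7.03%. Tagln and Acta2, smooth muscle genes that are expressed in early differentiation, had 278 and 485 CPM in MT and 20.3 and 14.9 CPM in MB (log2FC 4.44, adjusted p = 4.88e-04) and 1319 and 3436 CPM in MT and 508 and 277 CPM in MB (log2FC 2.60, adjusted p = 0.0262). Vim (vimentin) and Tagln2 fell, with 951 and 1480.4 CPM in MT and 9579.8 and 4051 CPM in MB (log2FC -2.49 ± 0.78, adjusted p = 0.0493) and 180.0 and 280.2 CPM in MT and 1354 and 836 CPM in MB (log2FC -2.25, adjusted p = 0.0188), and nonmuscle myosin Myh9 had 188 and 203 CPM in MT and 300.0 and 185 CPM in MB with overlapping libraries. Neither fall in this list was called without MT replicate 1. The matrix class had 3 members lower without MT replicate 1 in place of 6.

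The lists of energy metabolism differed in their counts. Of 26 genes of pyruvate dehydrogenase and the tricarboxylic acid cycle 2 rose (7.69%) and 1 fell (3.85%). Of 78 nuclear genes of the respiratory chain and ATP synthase 4 rose (5.13%) and 0 fell, with a median log2FC of 0.04. Both lists were under the shares over all protein-coding genes, 11.4% higher and 7.03% lower. The 4 of the respiratory chain were Cox8b, Cox6a2 and Cox7a1, the muscle forms of cytochrome oxidase subunits, and Ndufv3, a complex I subunit. Cox6a2 had 179 and 393 CPM in MT and 1.51 and 0.4804 CPM in MB (log2FC 8.17 ± 0.76, adjusted p = 1.42e-04), Cox8b 91.6 and 259 CPM in MT and 0.137 and 0.3603 CPM in MB (log2FC 9.35 ± 0.84, adjusted p = 1.19e-04) and Cox7a1 36.03 and 24.7 CPM in MT and 1.37 and 0.3603 CPM in MB (log2FC 5.14 ± 0.76, adjusted p = 0.00158). None of the 13 genes of the mitochondrial genome was called by edgeR, with 1 at an unadjusted p under 0.05 and 0 called by DESeq2, although 4 were called higher without MB replicate 2. Of these, mt-Co1 had 3449 and 4741 CPM in MT and 988 and 3162 CPM in MB (log2FC 0.98 ± 0.74, adjusted p = 0.393).

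Of 23 glycolysis and lactate genes 4 rose (17.4%) and 1 fell (4.35%), against 11.4% and 7.03% over all protein-coding genes. Pgam2, the muscle phosphoglycerate mutase (ENSMUSG00000020475, chr11:5801640-5803733, - strand), had 171 and 308 CPM in MT and 4.799 and 2.16 CPM in MB (log2FC 6.11 ± 0.63, adjusted p = 2.01e-04). Pfkm, the muscle phosphofructokinase, had 503 and 419.5 CPM in MT and 87.5 and 36.99 CPM in MB (log2FC 2.89 ± 0.55, adjusted p = 0.00585), and Slc2a4, the insulin-regulated glucose transporter, 12.5 and 23.8 CPM in MT and 2.06 and 0.601 CPM in MB (log2FC 3.77, adjusted p = 0.00932). For lactate, Ldha had 2682 and 2324 CPM in MT and 3609 and 2167 CPM in MB, with overlapping libraries and a sign that turned without MB replicate 1 (log2FC -0.21, adjusted p = 0.858). The lactate transporters went opposite ways: Slc16a1 (MCT1) fell, with 53.1 and 51.3 CPM in MT and 125 and 189 CPM in MB (log2FC -1.59, adjusted p = 0.0306), and Slc16a3 (MCT4) rose, with 68.7 and 24.6 CPM in MT and 6.99 and 2.76 CPM in MB (log2FC 3.26, adjusted p = 0.00972). The call of Slc16a1 was lost when replicate number was fitted as a block.

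Of 12 glycogen genes 6 rose and 0 fell. Ppp1r3a, which holds phosphatase 1 on glycogen in muscle, had 92.3 and 92.2 CPM in MT and no count in MB, at least 239-fold higher (adjusted p = 9.61e-05), and Pygm, muscle glycogen phosphorylase, had 212 and 505 CPM in MT and 15.4 and 2.64 CPM in MB (log2FC 5.32, adjusted p = 0.00233). Gys1, glycogen synthase, had 318 and 298 CPM in MT and 154 and 73.9 CPM in MB and was not called (log2FC 1.43, adjusted p = 0.0672). Of 11 genes of the creatine and adenylate system 7 rose and 0 fell. Ckm, cytosolic muscle creatine kinase, had 35.2 and 105 CPM in MT and 0.548 and 0.3603 CPM in MB (log2FC 7.24 ± 0.80, adjusted p = 2.75e-04), its mitochondrial partner Ckmt2 36.1 and 37.3 CPM in MT and no count in MB, at least 95.1-fold higher, and Ckb, the brain form, 130.3 and 496 CPM in MT and 70.2 and 29.8 CPM in MB (log2FC 2.65, adjusted p = 0.0227).

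Pdk1 and Pdk2, kinases that switch pyruvate dehydrogenase off, were the 2 genes of that list that rose, with 437 and 209 CPM in MT and 65.3 and 54.05 CPM in MB (log2FC 2.44, adjusted p = 0.00903) and 87.1 and 94.9 CPM in MT and 10.3 and 7.45 CPM in MB (log2FC 3.36, adjusted p = 0.00142). Pdk1 was not called without MT replicate 1, and 4 genes of the list were called higher and 4 lower without MB replicate 2. Pdk4 had 72.1 and 118 CPM in MT and 58.8 and 143 CPM in MB with overlapping libraries, and Cs, citrate synthase, 310.4 and 430.3 CPM in MT and 1210.0 and 731 CPM in MB (log2FC -1.39, adjusted p = 0.0979). Suclg2, a subunit of succinyl-CoA synthetase, fell (16.1 and 26.2 CPM in MT and 87.1 and 77.2 CPM in MB; log2FC -1.96, adjusted p = 0.0171). Of 24 fatty acid genes 4 rose (16.7%) and 0 fell, against 11.4% and 7.03% over all protein-coding genes. Among the 4, Fabp3, a carrier of fatty acids, had 23.2 and 31.1 CPM in MT and 0.411 and 0.4804 CPM in MB (log2FC 5.88, adjusted p = 4.97e-04). Cd36, which takes fatty acids up, had 61.6 and 42.5 CPM in MT and 0.411 and 0 CPM in MB. It was 282-fold higher in MT, with a 95% counting interval from 96.1 to 1367. Cpt1b, the muscle carnitine palmitoyltransferase, had no count in any of the 4 libraries. Energy metabolism had 2 members lower, Slc16a1 and Suclg2, and 0 without MT replicate 1, 1 without MT replicate 2 and 8 without MB replicate 2.

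Of 182 biosynthesis genes tested, 43 fell, 4 rose and 135 were not called. Of 19 genes of serine synthesis and other targets of the stress factor ATF4 9 fell and 0 rose, with 4 lower without MT replicate 1. Phgdh, the entry to serine synthesis, had 142 and 201 CPM in MT and 1809.7 and 839 CPM in MB (log2FC -2.95 ± 0.60, adjusted p = 0.00824). Shmt1 and Shmt2, which pass serine carbon to folate, had 5.73 and 7.89 CPM in MT and 104 and 86.96 CPM in MB (log2FC -3.81 ± 0.50, adjusted p = 7.70e-04) and 75.2 and 105 CPM in MT and 1105 and 578 CPM in MB (log2FC -3.22 ± 0.56, adjusted p = 0.00386), and Mthfd2, which follows in mitochondria, 97.97 and 91.5 CPM in MT and 288 and 242 CPM in MB (log2FC -1.48, adjusted p = 0.0376).

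Of 38 ribosome biogenesis genes 24 fell and 37 had both MT libraries under both MB libraries, with log2FC from -3.13 to -1.07. Over all protein-coding genes tested 7.03% were called lower and 29% lay below without overlap. Mybbp1a, a nucleolar protein, had 65.8 and 140.0 CPM in MT and 1133 and 663 CPM in MB (log2FC -3.13 ± 0.60, adjusted p = 0.00595), Pop1, of the RNase that processes ribosomal RNA, 4.98 and 8.403 CPM in MT and 53.9 and 42.999 CPM in MB (log2FC -2.86, adjusted p = 0.00557), and Nop56, of the small nucleolar RNPs, 88.8 and 139.9 CPM in MT and 525 and 525 CPM in MB (log2FC -2.20, adjusted p = 0.0115). Ncl (nucleolin) had 176 and 327 CPM in MT and 479 and 1660.2 CPM in MB and missed the threshold (log2FC -2.09, adjusted p = 0.055). Without MT replicate 1 edgeR called 0 of the 38, with 19 lower at an unadjusted p under 0.05, and without MT replicate 2 it called 18. The median log2FC was -1.57 without MT replicate 1, against -1.79 with all 4 libraries. DESeq2 called 33 of them lower on the 4 libraries.

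For cytosolic ribosomal proteins the direction was more uniform than the calls. Of 83 tested, 82 had both MT libraries under both MB libraries, none had both above, and the median log2FC was -1.50, but 9 were called by edgeR, 50 by DESeq2 and 0 by edgeR without MT replicate 1, where 4 were lower at an unadjusted p under 0.05. Over all protein-coding genes 29% lay below without overlap. MB replicate 1 was the higher of the MB libraries in each ribosomal protein named here: Rpsa had 139 and 413 CPM in MT and 2733 and 685 CPM in MB (log2FC -2.63 ± 0.79, adjusted p = 0.0431), Rps12 27.7 and 88.7 CPM in MT and 497 and 154 CPM in MB (log2FC -2.48, adjusted p = 0.032) and Rpl3 264 and 559.7 CPM in MT and 2566 and 1033 CPM in MB (log2FC -2.13, adjusted p = 0.0506). Without MB replicate 1 the median was -1.09 and 1 was called. Genes of ribosomal proteins have many processed copies, with which reads can be shared. Of 20 aminoacyl-tRNA synthetases 1 fell, Vars, with 108 and 181 CPM in MT and 1069 and 606 CPM in MB (log2FC -2.54, adjusted p = 0.0112), a call lost without MT replicate 1. DESeq2 called 5 lower. Of the 20, 18 lay below without overlap, with a median log2FC of -1.03, and Gars had 287 and 335 CPM in MT and 813 and 495 CPM in MB (log2FC -1.07, adjusted p = 0.164). Sterol synthesis and uptake had 4 of 22 higher (18.2%) and 0 lower, against 11.4% and 7.03% over all protein-coding genes. Its direction was opposite, with 17 of the 22 above without overlap, where 33.4% of all protein-coding genes were, and 0 below. The median log2FC was 0.97, and 1.11 without MT replicate 1. Hmgcs1, of the mevalonate pathway, had 298 and 381 CPM in MT and 62.3 and 99.5 CPM in MB (log2FC 2.07, adjusted p = 0.0135), and Sc5d 176 and 159 CPM in MT and 33.5 and 49.8 CPM in MB (log2FC 2.01, adjusted p = 0.0114). The biosynthesis class had 4 members lower without MT replicate 1 and 96 without MB replicate 2 in place of 43, and between 1 and 9 higher in place of 4 when a library was left out.

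Of 135 genes of protein quality and stress tested, 36 rose and 7 fell. Of 20 chaperones 8 rose and 2 fell. Hspb7, a small heat shock protein of sarcomeres, had 133 and 128 CPM in MT and 0.137 and 0.1201 in MB, 1022-fold with a 95% counting interval from 283 to 8446 higher. Unc45b, the myosin chaperone, had 109 and 198 CPM in MT and 2.61 and 0.961 CPM in MB (log2FC 6.43 ± 0.67, adjusted p = 2.02e-04), and Cryab, the small heat shock protein that protects desmin, 342 and 523 CPM in MT and 97.5 and 47.7 CPM in MB (log2FC 2.58, adjusted p = 0.00856). Hspd1 and Hspe1, the mitochondrial chaperonin pair, fell, with 168 and 225 CPM in MT and 765 and 1128 CPM in MB (log2FC -2.27, adjusted p = 0.0145) and 52.6 and 112 CPM in MT and 506 and 482 CPM in MB (log2FC -2.59, adjusted p = 0.0079), calls that were lost without MT replicate 1.

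Of 15 muscle ubiquitin ligase subunits and FoxO factors 7 rose and 0 fell. Klhl41, an adaptor that stabilizes nebulin, had 452 and 349 CPM in MT and 1.23 and 1.32 CPM in MB (log2FC 8.27 ± 0.61, adjusted p = 8.72e-05), Fbxo32 (atrogin-1), of protein breakdown, 22.1 and 53.1 CPM in MT and 3.15 and 1.56 CPM in MB (log2FC 3.99, adjusted p = 0.00361), and Fbxo40 5.65 and 6.62 CPM in MT and no count in MB, at least 15.9-fold higher. Of 31 proteasome subunits edgeR called 0, with 1 lower at an unadjusted p under 0.05, and DESeq2 called 0. Even so 21 of the 31 had both MT libraries under both MB libraries and 1 had both above, where 29% and 33.4% of all protein-coding genes did, and the median log2FC was -0.49, with Psma1 at 148 and 202 CPM in MT and 229 and 329.9 CPM in MB (log2FC -0.68, adjusted p = 0.33).

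Lysosome and autophagy genes had 10 of 25 higher and 0 lower, and 20 of the 25 lay above without overlap, where 33.4% of all protein-coding genes did. Bnip3, a receptor for removal of mitochondria, had 1055 and 205 CPM in MT and 45.5 and 46.8 CPM in MB (log2FC 3.77 ± 0.74, adjusted p = 0.00678), and MT replicate 1 was far above replicate 2. Map1lc3a, of the autophagosome membrane, had 322 and 574 CPM in MT and 143 and 62.5 CPM in MB (log2FC 2.12, adjusted p = 0.025), Tfeb, the factor that drives lysosomal genes, 13.4 and 13.5 CPM in MT and 1.78 and 1.201 CPM in MB (log2FC 3.16, adjusted p = 0.0121), and Ctsl 470.2 and 749.6 CPM in MT and 285 and 278 CPM in MB without a call (log2FC 1.12, adjusted p = 0.143). Without MT replicate 1, 5 members were called higher, without MT replicate 2, 3 were, and without MB replicate 2, 5. Genes of class I antigen presentation and the interferon response had 5 of 12 higher and 0 lower, with 2 higher without MT replicate 1. H2-T23 had 18.1 and 15.2 CPM in MT and 1.097 and 0.601 CPM in MB (log2FC 4.28, adjusted p = 0.00353), Irf7 7.56 and 3.31 CPM in MT and 0.411 and 0.3603 CPM in MB (log2FC 3.78, adjusted p = 0.0239), and B2m was not called (log2FC 0.88).

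Antioxidant genes fell in 5 and rose in 2 of 21, with 3 lower without either MT library. The genes that fell include Gclm, of glutathione synthesis, with 5.31 and 6.24 CPM in MT and 57.6 and 66.1 CPM in MB (log2FC -3.42 ± 0.51, adjusted p = 0.00161), and Txnrd1, thioredoxin reductase, with 41.3 and 52.6 CPM in MT and 714 and 326 CPM in MB (log2FC -3.47 ± 0.56, adjusted p = 0.00252). Sod3 and Gpx3, which are secreted, rose, with 28.97 and 38.3 CPM in MT and 0.137 and 0.3603 CPM in MB (log2FC 6.97, adjusted p = 2.72e-04) and 27.6 and 119 CPM in MT and 3.57 and 1.44 CPM in MB (log2FC 4.87, adjusted p = 0.00306), and the metallothionein Mt2 had 23.3 and 92.05 CPM in MT and 17.6 and 17.3 CPM in MB (log2FC 1.72, adjusted p = 0.0837). Of 12 genes of the hypoxia response and myoglobin 5 rose and 0 fell. Mb (myoglobin), the oxygen store of muscle, had 339 and 1394 CPM in MT and 1.78 and 0.721 CPM in MB (log2FC 9.44 ± 0.98, adjusted p = 2.02e-04), and Vegfa 12.9 and 4.84 CPM in MT and 4.66 and 3.36 CPM in MB without a call (log2FC 1.15, adjusted p = 0.312). Of these, 2 were called without MT replicate 1. The protein quality class had 3 lower without MT replicate 1 and 4 without MT replicate 2, in place of 7.

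Genes of RNA processing and the nucleus had 11 of 66 higher and 6 lower, shares near those of 11.4% and 7.03% over all protein-coding genes. The members named are given as single genes. Ptbp1, which represses muscle exons, fell, with 49.8 and 97.5 CPM in MT and 827 and 374 CPM in MB (log2FC -3.03 ± 0.59, adjusted p = 0.00681), and Rbfox1 and Srpk3, a splicing factor and a kinase of splicing factors in muscle, rose, with 25.3 and 40.4 CPM in MT and 1.51 and 0.721 CPM in MB (log2FC 4.88, adjusted p = 0.00119) and 37.8 and 50.3 CPM in MT and 2.33 and 1.08 CPM in MB (log2FC 4.69, adjusted p = 9.81e-04). Mbnl1, another muscle splicing factor, had 244 and 272 CPM in MT and 46.8 and 307 CPM in MB with overlapping libraries, MB replicate 1 being far below the others. At the nuclear envelope, where myotubes move their microtubule centre from the centrosome, Akap6 and Syne1, which hold it there, rose, with 58.7 and 89.5 CPM in MT and 2.61 and 2.28 CPM in MB (log2FC 4.92 ± 0.56, adjusted p = 3.37e-04) and 22.3 and 37.2 CPM in MT and 4.66 and 1.68 CPM in MB (log2FC 3.23, adjusted p = 0.00876), and Plpp7, a muscle protein of the envelope, had 42.1 and 90.5 CPM in MT and 0.9598 and 0.4804 CPM in MB (log2FC 6.51, adjusted p = 2.72e-04). Emd (emerin) and Tuba1b, a tubulin, fell, with 16.4 and 26.2 CPM in MT and 94.5 and 60.7 CPM in MB (log2FC -1.87, adjusted p = 0.025) and 307 and 526 CPM in MT and 2718 and 996 CPM in MB (log2FC -2.16, adjusted p = 0.0469), calls that were lost without MT replicate 1, and Tubb6 had 1137 and 1036 CPM in MT and 1202 and 791 CPM in MB with overlapping libraries.

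Of 18 histone acyl writers and erasers, the enzymes that add or remove acetyl and related groups on histones, 4 rose (22.2%) and 2 fell (11.1%). Over all protein-coding genes the shares were 11.4% and 7.03%. Hdac11 had 16.3 and 26.7 CPM in MT and 3.02 and 0.601 CPM in MB (log2FC 3.58, adjusted p = 0.0122) and Hdac9, a partner of MEF2 factors, 18.8 and 3.18 CPM in MT and 0 and 0.2402 CPM in MB, 98.9-fold with a 95% counting interval from 27.1 to 821 higher. Hdac4 and Kat2b complete the 4, at log2FC 1.61 and 2.37, and 2 members were called higher without MT replicate 1. Kat2a and Hdac1 fell, with 28.7 and 40.4 CPM in MT and 142 and 113 CPM in MB (log2FC -1.89, adjusted p = 0.0154) and 35.5 and 46.98 CPM in MT and 113 and 103 CPM in MB (log2FC -1.39, adjusted p = 0.0473), calls that were lost without either MT library, and Ep300 had 10.9 and 24.7 CPM in MT and 34.97 and 21.98 CPM in MB with overlapping libraries. Of 11 imprinted growth genes Igf2 rose and Plagl1, a zinc finger regulator of that network, fell, with 8.302 and 3.69 CPM in MT and 79.3 and 239 CPM in MB (log2FC -4.71 ± 0.68, adjusted p = 0.00139), while Peg3 had 230.4 and 417 CPM in MT and 587 and 730.4 CPM in MB without a call (log2FC -1.02, adjusted p = 0.194). Each direction held 9.09% of the imprinted list, near the 11.4% higher and 7.03% lower over all protein-coding genes. The class had 2 members lower without MT replicate 1, 3 without MT replicate 2 and 11 without MB replicate 2, in place of 6.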

How the data were processed

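RNA was sequenced from 2 MT and 2 MB control libraries. The authors trimmed reads (Trim Galore 0.6.6), aligned them to mm10 (HISAT2 2.2.1) and counted them per gene (featureCounts of Subread 2.0.1), per the labels and the study's methods, and deposited raw counts per Ensembl gene. The annotation release and the handling of strand and of multiply mapped reads are not given in the sources used here, so overlapping genes and near-identical copies are uncertain. Libraries held 7770793 to 10839516 counts.

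The 4 libraries were fitted without a block by edgeR 4.0.16 (R 4.3.3, limma 3.58.1; TMM, quasi-likelihood test, low counts removed with edgeR's own filter) over 12921 genes, with a biological coefficient of variation of 0.425. Calls needed an adjusted p under 0.05 (Benjamini-Hochberg) and an absolute log2FC over 0.5. CPM used TMM library sizes, and RPKM also the exon length. Exon lengths, gene names and gene types such as protein-coding were taken from GENCODE M21, which held 45229 of the 46078 genes listed. It may differ from the release used for counting. Where a state had no count, the fold is against 3 counts per library. Where it had 1 to 3 counts in all, the ratio has a 95% counting interval, which covers counting error only. The fit was tested on simulated data. DESeq2 1.42.0 was an alternative, beside other normalization, filters, thresholds, sample sets and each library left out. Tables were made with Python 3.11.15 (pandas 2.3.3, numpy 2.4.6, scipy 1.17.1) and figures with matplotlib 3.10.9.

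The members and lists were chosen with earlier results of these data known. Named genes are key genes of each list and, in each direction, up to 2 called members with the largest log2FC and at least 10 counts in each library of the higher state, and likewise up to 10 genes of no list. Genes named to complete a count, for a discordant replicate, or as Cdh15, Cd34, Pdgfra, Chrng, Slc16a3, Tpm1, Myoz2 and Ccnb1, were chosen after their values were seen. Some genes that the rule names are not reported here. Libraries of the same number did not deviate together (r = -0.132 between the deviations of replicate 1 of MT and of MB), so the numbers were not taken to pair the samples. Lactate-treated MB entered 1 alternative fit only, and gastrocnemius libraries were not used.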

Additional observations from a re-analysis of the deposited data

How the results depend on the processing

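Normalization by RLE size factors, no filter on low counts, no fold threshold, an absolute log2FC over 1 and leaving out genes counted only in MT replicate 1 moved none of the 22 counts of calls by more than 1.5 times. The genes behind a count could still change. With no filter 1123 of 1382 genes called higher and 811 of 1002 called lower were also called in the main fit. Requiring at least 10 counts in every library left 766 genes higher. By class it left 6 muscle regulators, 31 contractile, 21 membrane and calcium, 29 matrix, 15 energy and 5 RNA and nucleus genes higher. Genes at or near 0 in MB were no longer tested in that fit. It had 0 membrane genes lower, although Dtnb was still tested, with at least 25 counts in each library. Why the call of Dtnb was lost was not tested. DESeq2 called 98 biosynthesis, 4 energy and 10 RNA and nucleus genes lower, and the fit of all 6 cultured libraries 1 energy gene lower. With the replicate block edgeR called 1447 genes higher and 824 lower, with 1 energy gene lower. With crossed numbers it called 1192 and 867, with 80 biosynthesis, 5 energy and 0 membrane genes lower. Leaving out 1 library gave 288 to 1526 genes lower, and lower counts of 2 to 11 for muscle regulators, 0 to 3 for membrane, 54 to 114 for cell division, 7 to 16 for signalling, 3 to 9 for matrix, 0 to 8 for energy, 4 to 96 for biosynthesis, 3 to 10 for protein quality and 2 to 11 for RNA and nucleus genes. Higher counts then ranged from 24 to 39 for signalling and from 1 to 9 for biosynthesis. For shares of counts (MT minus MB, percentage points), summed RPKM gave 6.27 for contractile, -1.59 for cell division, 2.88 for matrix, 2.73 for energy, -9.30 for biosynthesis and 0.573 for protein quality genes. All genes in the total gave -1.74 for cell division, and leaving out the mitochondrial genome 0.134 for energy. Leaving out 1 library gave -0.0721 to 0.387 for protein quality. Of the genes reported, those that were not called and whose sign turned were Ccnd3 (-0.23 to 0.85 on the log2 scale), Ldha (-0.53 to 0.19), Mbnl1 (-0.27 to 2.46), Myh9 (-0.62 to 0.061), Pdk4 (-0.61 to 0.69) and Tubb6 (-0.15 to 0.44) with 1 library left out, and Pdk4 at 0.0077 with at least 10 counts, 0.0082 with the block and 0.0058 with crossed numbers. No gene that was called turned. With 1 library left out the lack of overlap fixes this in advance, so it is not given as support. The crossed pairing was chosen after seeing the data, and for results other than these counts and shares the cause of a change was not tested.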

Other observations

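The protein-coding genes of no list given here are the 10 called higher with the largest fitted log2FC among those with at least 10 counts in each MT library. All 10 had no count in either MB library, so their order depends on the fit. Scn7a, a sodium channel relative, had 97.2 and 194 CPM in MT, at least 378-fold higher (adjusted p = 1.01e-04, edgeR's quasi-likelihood test with Benjamini-Hochberg adjustment, as for the values that follow). Chrdl1, a secreted antagonist of BMP, had 129.6 and 76.01 CPM in MT and was at least 266-fold higher. Ms4a4d had 112 and 78.8 CPM and was at least 247-fold higher. Ip6k3, an inositol hexakisphosphate kinase of muscle, had 67.9 and 65.3 CPM and was at least 173-fold higher. Adprhl1, Armh4, Fgf13, Hephl1, Capn6 and Mfap5 were at least 153, 106, 79.7, 78.8, 75.4 and 67.03-fold higher, with adjusted p between 2.01e-04 and 0.0014. Mfap5 had 41.9 and 9.803 CPM in the 2 MT libraries and Armh4 65.3 and 16.4, far more in replicate 1 than in replicate 2.

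The 10 largest called falls outside the lists began with Nefl, the light neurofilament. It had 109 and 76.1 CPM in MB and 1 count in all in MT, 1818-fold with a 95% counting interval from 326 to 71862 higher in MB (adjusted p = 8.72e-05). Fam19a5, a secreted protein, had 0.664 and 0.891 CPM in MT and 69.9 and 150.1 CPM in MB (log2FC -7.14, adjusted p = 1.42e-04), and Dynap 0.664 and 0.382 CPM in MT and 53.5 and 115 CPM in MB (log2FC -7.25, adjusted p = 1.63e-04). Prl2c2 (proliferin), a hormone of the prolactin family, had 9.74 and 26.2 CPM in MB and 1 count in MT, 368-fold with a 95% counting interval from 65.6 to 14593 higher in MB. Selp, Ccdc184 and Nhlrc4 had 4.52 and 25.3, 8.502 and 9.85 and 5.35 and 3.36 CPM in MB, with 1 count in MT for Selp and Ccdc184 and none for Nhlrc4. Gm8104 and Gm8094 have near-identical copies, and so do Hmga1b (5.81 and 9.803 CPM in MT and 673 and 240.2 CPM in MB) and Hmga1, so that the reads of each pair cannot be assigned with certainty.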
